A study of Mus musculus with 2 samples.

Results

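The genes described here are 3 neuropeptide genes, Sst, Npy and Tac1, which encode somatostatin, neuropeptide Y and the tachykinin precursor that yields substance P and neurokinin A. They were taken by symbol from the deposited single-cell table, where they are 3 of 18088 genes. All 3 are protein-coding in the GENCODE annotation of GRCm38. Sst (ENSMUSG00000004366) lies on chromosome 16 at 23889573 to 23890958 on the minus strand, with 1 transcript of 2 exons. Npy (ENSMUSG00000029819) lies on chromosome 6 at 49822710 to 49829507 on the plus strand, with 1 transcript of 4 exons. Tac1 (ENSMUSG00000061762) lies on the same chromosome at 7554879 to 7565834 on the plus strand, with 5 annotated transcripts of 2 to 7 exons.

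The tissue was the medial ganglionic eminence (MGE) of CD-1 mouse embryos at stage E11.5, microdissected and dissociated to single cells. Single-cell RNA was captured with 10x droplets after MULTI-seq labelling, which tags cell suspensions with lipid-anchored barcodes so that they can share a run. Of the 2 deposited samples, one is the RNA library and the other the barcode library of the same pool. The barcode list named 6 suspensions, 4 labelled GFP and 2 labelled ungated, each from tissue carrying the enhancer hs192 or hs799. No map from cells to these barcodes was used here. All values below therefore come from 1 pooled library without replicates, and no test between conditions was possible. How many embryos were pooled is not stated in the labels.

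Neuropeptides are cut from larger precursors in the secretory pathway, stored in dense core vesicles and released to act on G protein-coupled receptors. The MGE is the ventral forebrain zone that makes most somatostatin and parvalbumin interneurons of the cortex, along with pallidal and basal forebrain neurons. In the adult mouse brain Sst and Npy mark partly overlapping sets of GABAergic interneurons, while Tac1 marks the direct pathway projection neurons of the striatum, which come from the neighbouring lateral ganglionic eminence (LGE). Lhx6 is the LIM homeodomain factor of MGE-derived interneurons. Lhx8 is a related factor needed for forebrain cholinergic neurons. Isl1 and Ebf1 act in striatal direct pathway neurons.

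The 250 bases before each RefSeq start (GRCm38.p6) are shown because genes of the cAMP and activity response were among those compared below. Capitals mark matches on either strand to 4 motifs, TGACGTCA (the cAMP response element), TATAAA (the TATA box), TAATTA (a homeodomain core) and CACGTG (an E-box).
Sst, chr16:23890845-23891094, minus strand: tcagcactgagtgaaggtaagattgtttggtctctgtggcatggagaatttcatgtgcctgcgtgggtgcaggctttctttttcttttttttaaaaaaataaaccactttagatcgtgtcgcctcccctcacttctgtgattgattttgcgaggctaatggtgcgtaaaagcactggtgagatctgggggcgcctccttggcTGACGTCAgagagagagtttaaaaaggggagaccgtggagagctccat
Npy, chr6:49822460-49822709, plus strand: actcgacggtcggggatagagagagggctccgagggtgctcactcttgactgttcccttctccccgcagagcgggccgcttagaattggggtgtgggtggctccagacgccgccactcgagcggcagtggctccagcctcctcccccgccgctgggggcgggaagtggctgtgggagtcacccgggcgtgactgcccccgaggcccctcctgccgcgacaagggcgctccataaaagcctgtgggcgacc
Tac1, chr6:7554811-7555060, plus strand: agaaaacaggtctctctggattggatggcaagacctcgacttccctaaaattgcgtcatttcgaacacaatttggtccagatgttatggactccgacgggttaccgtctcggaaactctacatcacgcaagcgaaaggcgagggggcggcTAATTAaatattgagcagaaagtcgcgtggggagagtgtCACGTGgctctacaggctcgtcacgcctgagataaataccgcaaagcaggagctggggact
The Sst window holds a full cAMP response element whose first base lies 48 bases before the start, a match found in 1.55% of 32851 RefSeq promoter windows of this length. The Tac1 window holds a TAATTA 100 bases and a CACGTG 61 bases before its start, found in 4.84% and 6.02% of windows. The Npy window holds none of the 4 motifs, and TATAAA, found in 12.4% of windows, is in none of these 3. The GENCODE spans of Sst and Tac1 reach into their windows, so part of each is transcribed in that annotation.

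The deposited table held whole numbers for 4001 cells that were not raw counts. Cell totals ran from 10475 to 14196 (median 12503 over the 3995 cells kept after 6 cells called doublets were removed), and raw depth is unknown. In 214 cells under 10% of the values of 736 genes with a mean near 1 were exactly 1 (median over cells 34.2%), which raw UMI counts do not show. The cells were clustered without Sst, Npy and Tac1, so that their distribution over clusters was not built in. This gave 16 clusters. In 9 of them, with 2259 cells, the summed level of the pan-neuronal markers was above that of all cells together, and they are called neuronal. The other 7, with 1736 cells, were mostly progenitor-like. A level is the summed value of a gene per 10000 summed values of all genes in a group of cells. Intervals on shares are exact 95% binomial (Clopper-Pearson) and cover the counting of cells only.

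Each of the 3 genes was at 0 in most cells and very high in a few. Sst had a value of at least 1 in 299 of 3995 cells, a share of 7.48% (interval 6.69 to 8.34%). Npy had one in 531 cells, a share of 13.3% (12.3 to 14.4%). Tac1 had one in 158 cells, a share of 3.95% (3.37 to 4.61%). The largest value in a single cell was 120 for Sst, 83 for Npy and 99 for Tac1. Cells at 10 or more numbered 51 for Sst, 125 for Npy and 27 for Tac1, and held 82.4% of the summed Sst, 72.9% of the summed Npy and 76.2% of the summed Tac1. The 10 highest cells alone held 33.7% of Sst, 14.2% of Npy and 48.9% of Tac1.

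A value of exactly 1 was about as common in the pooled neuronal clusters as in the others. For Sst it was found in 4.87% of cells in neuronal clusters and 5.24% in the other clusters. For Tac1 the shares were 2.88% in neuronal clusters and 2.48% in the others, and for Npy 6.73% in neuronal clusters and 5.24% in the others. By cluster, Tac1 at exactly 1 was in 15.8% of cells of cluster 16 and 5.52% of cluster 10, the clusters where it was highest. Ventricular zone progenitors should lack Sst and Tac1. In ventricular zone progenitor-like cluster 2 (516 cells, median total 13431) 5.04% of cells had Sst, 5.04% Npy and 2.91% Tac1 at 1 or more, and in cluster 3 (514 cells, median total 13586) 5.45% had Sst, 10.1% Npy and 1.95% Tac1. The neuronal cluster 1, introduced below, had a median total of 12121.5. Values of at least 2 divided the cells by type. Sst reached 2 in 4.25% of cells in neuronal clusters and 0.115% in the others, Npy in 11.1% of neuronal cells and 2.13% of the others, and Tac1 in 2.08% of neuronal cells and 0.173% of the others. For Sst and Tac1, a single 1 outside clusters 10 and 16 is therefore near the background level. No class lacking Npy was named, and its share at exactly 1 ran from 2.04 to 8.50% over clusters. Comparisons below that count a value of at least 1 include such cells, 110 of the 206 neuronal cells with Sst among them. Results at 2 or more are given beside many of the main ones.

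**Figure D1:**
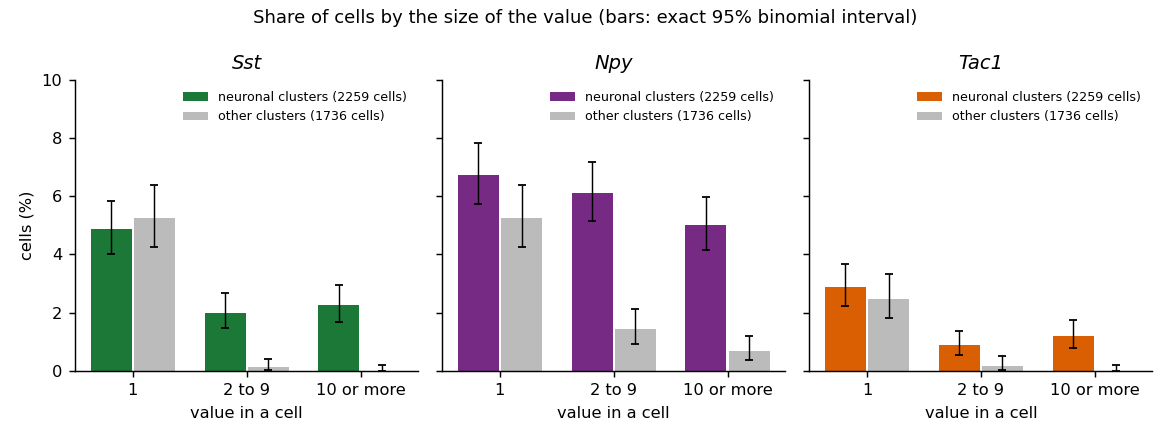
Percent of cells with a value of 1, of 2 to 9 and of 10 or more (x axis) for each gene, in the 9 neuronal clusters (coloured) and the 7 other clusters (grey), with exact 95% binomial intervals. The shares at 1 are similar on both sides, while no cell of the other clusters has Sst or Tac1 at 10 or more and 12 have Npy.

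Sst was concentrated in 1 cluster of MGE interneuron character. Cluster 1 (524 cells, GABAergic MGE neuron-like, with 13 of 14 markers raised, led by Calb1, Cacng3, Nxph1 and Maf) held 76.4% of all Sst. Its Sst level was 2.71 (SD over cells 9.99), and 71 cells (13.5%, interval 10.7 to 16.8%) were at 2 or more. Among these the median value was 16.

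Next in order was cluster 16, the Ebf1 cluster described under Tac1, at 0.904 with 5 of 76 cells at 2 or more (6.58%, interval 2.17 to 14.7%). Cluster 6 (264 cells, led by Pde3a, Asic2 and Nr4a2, unnamed) followed at 0.819 with 9 cells (3.41%, 1.57 to 6.37%). Their intervals overlap, so these neighbours were not told apart. All other clusters were at or below 0.0934, and 7 of the 16 had 0 cells at 2 or more. The cholinergic neuron-like cluster 7 (233 cells) had the lowest level, 0.0279, with 1 cell at 2 or more (0.429%, 0.0109 to 2.37%). When the cells were split more finely, into 29 clusters, again without the 3 genes, 194 cells (4.86% of all, nearly all of them from cluster 1) held 67.3% of all Sst. Their Sst level was 6.38 and 29.4% of them (23.1 to 36.3%) were at 2 or more. The leading genes of this finer cluster were Syt6, Cacng3, Calb1, Nxph1 and Unc5d.

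Npy was shared more widely. Cluster 1 was again highest, at 2.89 with 139 cells at 2 or more (26.5%, interval 22.8 to 30.5%), but held only 51.8% of all Npy. Cluster 5 (340 cells, unnamed, led by Tgfb3, Prox1os, Neb and St18) was at 1.36 with 45 cells at 2 or more (13.2%, 9.82 to 17.3%). Cluster 11 (153 cells, GABAergic MGE neuron-like, led by Lrp1b and Gucy1a1) was at 1.03 with 21 cells (13.7%, 8.70 to 20.2%). The interval of cluster 1 lies above those of clusters 5 and 11, which overlap each other. Cluster 14 (104 cells, hypothalamic or preoptic neuron-like, with Hmx2 and Hmx3) was at 0.833 with 6 cells, and cluster 4 (402 cells, unnamed, led by Kitl, Sgk1 and Zic1) at 0.664 with 25 cells.

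Npy was also found in progenitor-like clusters. The ventricular zone progenitor-like cluster 3 was at 0.162 with 11 of 514 cells at 2 or more (2.14%), 3 of them at 10 or more. Cluster 8 (184 cells, subventricular zone progenitor-like, with Dll3) was at 0.655 with 8 cells at 2 or more (4.35%, 1.90 to 8.39%). Cluster 12 (147 cells, a dividing subventricular zone-like cluster with Cdc20 and Ube2c) was at 0.448 with 9 cells (6.12%, 2.84 to 11.3%), and cluster 15 (89 cells, led by Gsx1) at 0.349 with 5. The highest Npy value there was 56, in cluster 8. The cholinergic neuron-like cluster 7 had 0 of 233 cells at 2 or more, which allows a share of up to 1.29% when 3 cells are taken as the limit, and 1.57% by the exact interval. Clusters 10 and 16, which lead for Tac1, were at 0.0835 and 0.0804 with 2 cells and 1 cell at 2 or more.

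Tac1 was nearly limited to 2 small clusters of striatal character. Cluster 16 (76 cells, LGE striatal neuron-like, led by Ebf1, Dlc1 and Syt13) was at 3.52 with 21 cells at 2 or more (27.6%, interval 18.0 to 39.1%). Cluster 10 (163 cells, LGE striatal neuron-like, with Gal, Grm8, Aldh1a3 and Sp8 among its leading genes) was at 1.83 with 20 cells (12.3%, 7.66 to 18.3%). They held 41.7% and 44.3% of all Tac1. The intervals of the shares overlap slightly, so the order of these neighbours is not firm. The third cluster in order was at 0.0643, and cluster 1, where Sst and Npy were highest, was at 0.0590 with 4 of 524 cells at 2 or more (0.763%, 0.208 to 1.94%). In 11 of the 16 clusters 0 cells reached 2.

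**Figure D2:**
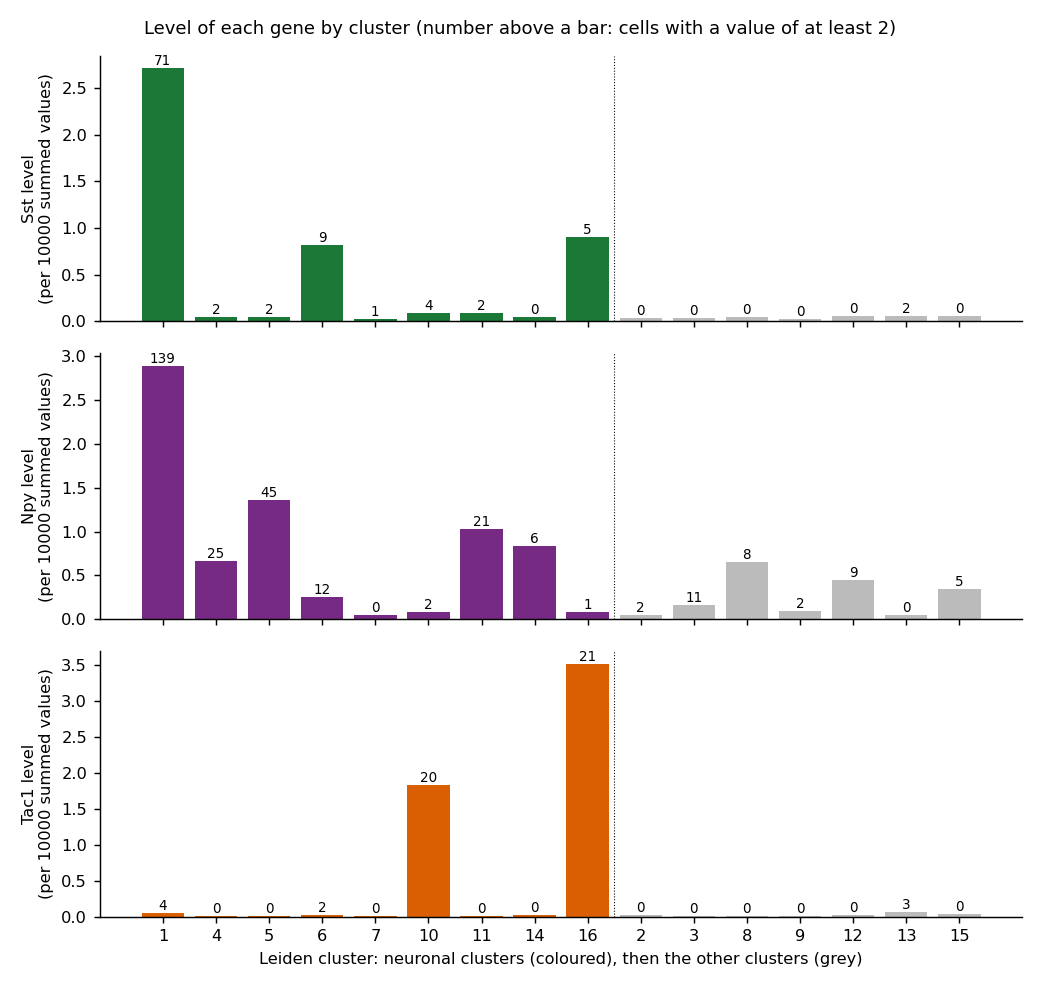
Level of Sst, Npy and Tac1 (summed value per 10000 summed values, y axes from 0, a scale per gene) in each Leiden cluster, neuronal clusters first (coloured) and the others after them (grey), with the number of cells at 2 or more above each bar. Sst stands in cluster 1, Npy in clusters 1, 5 and 11 with smaller bars elsewhere, and Tac1 in clusters 16 and 10.

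The individual cells with the highest values carried different regulators. Of the 51 cells with Sst at 10 or more, 43 were in cluster 1 (values 11 to 120, median 28), 6 in cluster 6 (18 to 70) and 2 in cluster 16 (17 and 58). Sox6, a transcription factor of MGE interneurons, was at 2 or more in 49 of the 51 (96.1%, interval 86.5 to 99.5%), against 52.7% of all cells in neuronal clusters. Lhx6 was at 2 or more in 42 of 51 (82.4%), against 68.0% of neuronal cells, and Lhx8 in 32 of 51 (62.7%), against 66.1%. Satb1, a chromatin organiser needed for Sst interneuron maturation in mice, was at 2 or more in 25 of 51 (49.0%, 34.8 to 63.4%), against 15.4%. Calb1, which encodes calbindin, was at 2 or more in 41 of 51 (80.4%, 66.9 to 90.2%), against 29.4%. Nkx2-1, the MGE patterning factor, was at 2 or more in only 14 of 51 (27.5%, 15.9 to 41.7%), against 59.8%. Over all 524 cells of cluster 1, the shares at 2 or more were 87.0% for Sox6, 70.6% for Calb1 and 32.4% for Satb1. The Sox6 and Calb1 intervals of the high-Sst cells hold these shares, and the Satb1 interval lies above its share. In cluster 1 Nkx2-1 was at 2 or more in 229 of 524 cells.

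The 2 cells of cluster 16 with high Sst were of another kind. They had Isl1 at 4 and 14 and Ebf1 at 25 and 50, Sox6 and Lhx6 at 0 in both, and Tac1 at 0 and 1. Their doublet scores, 0.0126 and 0.0115, were below the median of 0.0267 over all cells.

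The 125 cells with Npy at 10 or more fell in 11 of the 16 clusters, with 68 in cluster 1, 23 in cluster 5 and 13 in cluster 4. Sox6 was at 2 or more in 106 of them (84.8%) and Lhx6 in 104 (83.2%). Unlike the Sst cells, 81 of 125 had Nkx2-1 at 2 or more (64.8%), against 59.8% of neuronal cells, and 62 had Zeb2 (49.6%), against 23.5%. Zeb2 encodes a transcriptional repressor.

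Of the 27 cells with Tac1 at 10 or more, 15 were in cluster 10 (10 to 99, median 15), 11 in cluster 16 (10 to 89, median 16) and 1 in cluster 1. Isl1 was at 2 or more in 25 of 27 (92.6%), against 22.2% of neuronal cells, and Ebf1 in 22 of 27 (81.5%), against 5.89%. Lhx6 and Nkx2-1 were at 2 or more in 0 of 27, against 68.0% and 59.8%. The cell of cluster 1 was the exception, with Tac1 at 10, Sox6 at 6, Calb1 at 13, Lhx6 at 1, and Isl1 and Ebf1 at 0.

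**Figure D3:**
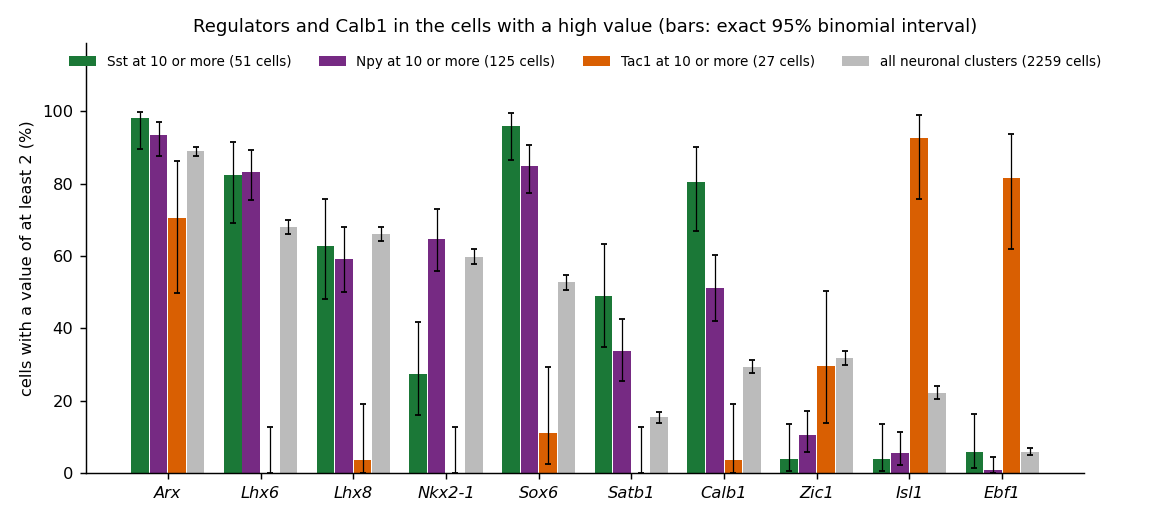
Percent of cells with each regulator (or Calb1) at 2 or more (y axis), in the 51 cells with Sst, the 125 with Npy and the 27 with Tac1 at 10 or more, and in all 2259 cells of neuronal clusters (grey), with exact 95% binomial intervals. High-Sst and high-Npy cells share Lhx6 and Sox6 and differ in Nkx2-1, while high-Tac1 cells have Isl1 and Ebf1.

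Lhx6 and Lhx8 divide GABAergic from cholinergic fates in the mouse MGE, and the series is titled for that division. In neuronal cells with Lhx6 and without Lhx8 (311 cells), Sst was at a level of 1.05 and Npy at 1.72. In those with both factors (1504 cells) Sst was at 0.896 and Npy at 1.25. The log2 ratios were 0.23 for Sst and 0.46 for Npy. The shares at 2 or more were 6.11% (interval 3.72 to 9.38%) and 4.32% (3.35 to 5.48%) for Sst, overlapping, and 18.0% (13.9 to 22.7%) and 11.8% (10.2 to 13.6%) for Npy, which do not overlap. Within cluster 1, Npy was at 2 or more in 25.7% of cells with Lhx8 at 2 or more (21.0 to 30.8%). In cluster 1 cells with Lhx8 at 0 the share was 27.0% (19.5 to 35.6%), overlapping. The Npy levels of these 2 groups were 2.89 and 2.53. In all neuronal cells with Lhx8 and without Lhx6 (222 cells) levels were 0.313 for Sst and 0.283 for Npy, the lowest of the 4 classes for Npy. Both factors were found in 38 of the 51 neuronal cells with Sst at 10 or more (74.5%, 60.4 to 85.7%) and in 84 of the 113 with Npy at 10 or more (74.3%, 65.3 to 82.1%), and both intervals hold the 66.6% of all neuronal cells.

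Sst levels differed more by Satb1 and Calb1. The Sst level was 2.75 in neurons with Satb1 at 2 or more (12.4% of cells with Sst at 2 or more) and 0.224 in neurons with Satb1 at 0 (1.87%). It was 2.14 in neurons with Calb1 at 2 or more (11.1%) and 0.185 in those with Calb1 at 0 (1.27%). By contrast it was 0.393 in neurons with Nkx2-1 at 2 or more (2.59%) and 1.56 in those with Nkx2-1 at 0 (7.36%). Within cluster 1, Sst was at 2 or more in 21.8% of cells with Satb1 at 2 or more (interval 15.8 to 28.7%). With Satb1 at 0 the share was 4.98% (2.41 to 8.96%), without overlap. For Calb1 the shares were 16.5% (12.9 to 20.7%) and 4.76% (1.56 to 10.8%), again without overlap. For Nkx2-1 they were 10.9% (7.19 to 15.7%) and 18.1% (12.7 to 24.7%), overlapping. The Npy level was 1.15 in neurons with Nkx2-1 at 2 or more (10.7% of cells with Npy at 2 or more) and 0.990 in those with Nkx2-1 at 0 (9.28%). Neurons with Zic1 at 2 or more, a septal and cholinergic lineage gene, were at 0.117 for Sst (0.695% at 2 or more) and 0.455 for Npy (4.03%), against 1.21 (6.58%) and 1.59 (15.4%) in neurons with Zic1 at 0.

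Tac1 was high where Isl1 and Ebf1 were found together. Neuronal cells with both (167 cells) had a Tac1 level of 3.16, and 36 of them (21.6%, interval 15.6 to 28.6%) were at 2 or more. All other neuronal cells (2092) were at 0.0432 with 11 at 2 or more (0.526%, 0.263 to 0.939%), a log2 ratio of 6.19. Neurons with Isl1 and without Ebf1 (534 cells) were at 0.0761 with 4 at 2 or more. Neurons with Ebf1 and without Isl1 (98 cells) were at 0.0250 with 0 at 2 or more. These 98 cells were at 2.01 for Sst, from 7 cells at 2 or more, and 1.33 for Npy, from 20. With Ebf1 at 2 or more and Isl1 under 2 only 18 cells remained, with 1 cell at 2 or more for each of Sst and Npy.

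**Figure D4:**
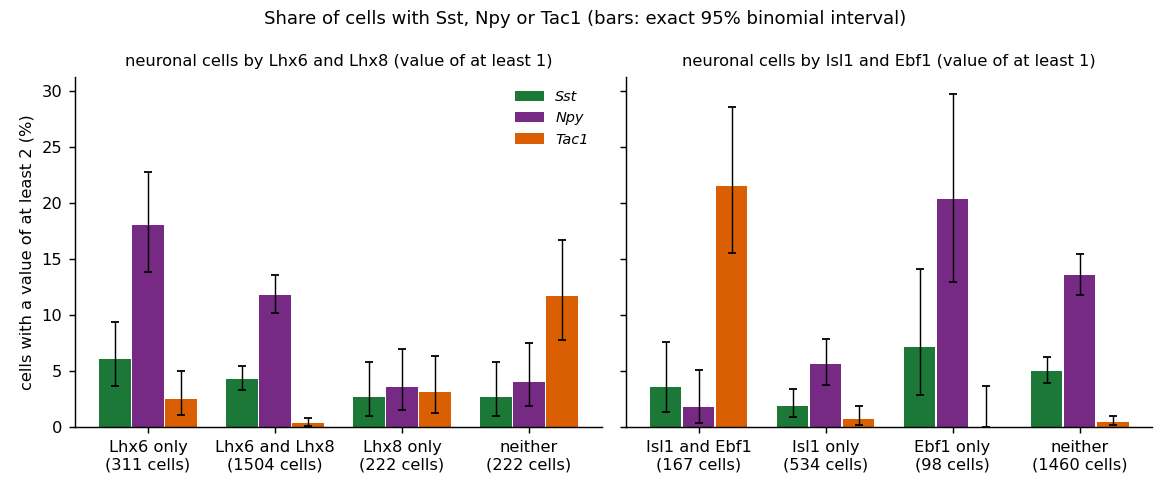
Percent of neuronal cells with Sst, Npy or Tac1 at 2 or more (y axis), by presence of Lhx6 and Lhx8 (left) and of Isl1 and Ebf1 (right) at a value of at least 1, with exact 95% binomial intervals. Npy is highest with Lhx6 only on the left, and Tac1 is at 21.6% in cells with both Isl1 and Ebf1 on the right and at most 0.749% in the other 3 classes.

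Sst and Npy were often in the same cells. In neuronal clusters, 73 of 206 cells with Sst had Npy (35.4%, interval 28.9 to 42.4%), against 330 of 2053 without Sst (16.1%, 14.5 to 17.7%). At 2 or more the shares were 37.5% of 96 and 9.94% of 2163. Within cluster 1, at 2 or more, 31 of 71 Sst cells had Npy (43.7%), against 108 of 453 cells without (23.8%). At 10 or more, 15 cells had both, 14 of them in cluster 1, while 36 had Sst without Npy and 110 Npy without Sst.

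Npy was in 18 of 112 neuronal cells with Tac1 (16.1%, 9.81 to 24.2%), against 385 of 2147 without (17.9%, 16.3 to 19.6%), with overlapping intervals. At 2 or more the intervals overlapped too, with Npy in 2 of 47 Tac1 cells (4.26%, 0.520 to 14.5%), against 249 of 2212 without (11.3%, 9.97 to 12.7%). In cluster 1 the order was the other way at 1 or more, with Npy in 10 of 21 cells with Tac1 (47.6%, 25.7 to 70.2%). Without Tac1 it was in 166 of 503 (33.0%, 28.9 to 37.3%), with overlapping intervals. Only 4 of the 21 cells had Tac1 at 2 or more. No cell had Tac1 at 10 or more together with either of the other 2 genes at 10 or more. Sst and Tac1 overlapped at lower values, with Tac1 in 19 of 206 neuronal cells with Sst (9.22%, 5.64 to 14.0%), against 93 of 2053 without (4.53%, 3.67 to 5.52%). At 2 or more Tac1 was in 6 of 96 Sst cells (6.25%, 2.33 to 13.1%), against 41 of 2163 without (1.90%, 1.36 to 2.56%), and in clusters 10 and 16 together in 5 of 9 (55.6%), against 36 of 230 (15.7%). Both were at 2 or more in 7 cells of the whole library, of which 3 were in cluster 16, 2 in cluster 10, 1 in cluster 1 and 1 in cluster 13. The cell with the highest Tac1 (99, with Ebf1 at 19) had Sst at 3. A single cell of cluster 1 had all 3 at 2 or more, Sst at 81, Npy at 28 and Tac1 at 5, with Lhx6 at 7 and a doublet score of 0.0144.

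Neurons with Sst showed higher levels of interneuron genes. The list of 30 Sst interneuron genes had 25 with enough values, and 8 were at least 2-fold higher and 0 lower in neurons with Sst at 1 or more than in neurons at 0, with a median log2 ratio of 0.23. Over all 13218 genes compared, 1.57% were 2-fold higher and 4.04% lower, and the median was -0.01. Calb1 was at 6.65 in neurons with Sst and 2.12 without (log2 ratio 1.65), Maf at 0.516 and 0.207 (1.32) and the adhesion ligand gene Nxph1 at 2.46 and 1.05 (1.23). Nkx2-1 was at 1.75 with Sst and 2.71 without (-0.63). Outside the lists, the leading genes by ratio were Masp1 at 0.122 with Sst and 0.0319 without (1.94), the synaptotagmin gene Syt6 at 0.307 and 0.0833 (1.88), and the postsynaptic scaffold gene Dlgap1 at 0.461 and 0.133 (1.79). Among the lowest were the axon guidance receptor gene Robo3 at 0.0828 with Sst and 0.272 without (-1.72) and Zic4 at 0.158 and 0.427 (-1.44).

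With Sst at 2 or more in place of 1 (96 cells), 12 list genes were higher and 1, Nkx2-1, was lower, with a median of 0.77, beside 3.72% of all genes higher and 9.87% lower and a median of -0.05. Zic4 was then listed at 0 in the Sst cells, against 0.427 in neurons at 0. Within cluster 1 alone, 3 of 22 list genes were 2-fold higher in cells with Sst at 2 or more and 0 lower, beside 1.40% and 4.19% of all genes. They included Calb1 at 13.6 with Sst and 6.53 without (log2 ratio 1.05) and Cux2 at 0.450 and 0.219 (1.04). Vstm2a led there outside the list, at 0.243 with Sst and 0.0427 without (2.51).

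Neurons with Npy resembled those with Sst in part. Of the same 25 genes, 3 were 2-fold higher in neurons with Npy at 1 or more and 0 lower (Maf, Calb1 and the chemokine receptor gene Ackr3), with a median of 0.37, beside 0.696% and 2.94% of all genes. Maf was at 0.479 with Npy and 0.183 without (log2 ratio 1.39). Zeb2 was at 1.40 and 0.894 (0.65), and Nkx2-1 at 2.69 and 2.61 (0.04). At 2 or more (251 cells) 9 were higher and 1 lower, beside 1.27% of all genes higher and 5.71% lower, the lower being Reln, which encodes the secreted glycoprotein reelin. The leading genes were Dlgap1 at 0.362 with Npy and 0.120 without (1.59) and Galnt14 at 0.301 and 0.119 (1.34). Within cluster 1 only Zeb2 of 22 list genes was past 2-fold with Npy at 2 or more, at 1.34 and 0.605 without (1.15), beside 0.585% of all genes higher and 1.10% lower.

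Neurons with Tac1 had higher levels of some of the striatal genes compared. Of 13218 genes, 6.28% were 2-fold higher and 6.04% lower in neurons with Tac1 at 1 or more (112 cells) than in neurons at 0. The list of 22 striatal direct pathway genes had 12 compared, of which 5 were higher and 1 lower, with a median log2 ratio of 0.32 beside 0.05 for all genes. Ebf1 had a log2 ratio of 3.58. Meis2 was at 7.15 and 1.07 (2.74), Zfp503 at 0.951 and 0.136 (2.81) and Isl1 at 5.14 and 1.32 (1.96). The zinc finger gene Sp9 was the lower member, at 1.55 with Tac1 and 3.27 without (-1.08). At 2 or more, 6 of these 12 genes were higher and 2 lower (median 0.65), beside 10.0% and 13.6% of all genes. With Tac1 at 2 or more (47 cells), 11 of the 25 Sst interneuron genes were 2-fold lower and 3 higher, beside 13.6% and 10.0% of all genes. Lhx6 was at 0.460 with Tac1 and 2.79 without (-2.60), and Nkx2-1 at 0.181 and 2.71 (-3.90). The 3 higher were Reln, Grik1 and Dlx6, with Reln at 0.773 with Tac1 and 0.0508 without (3.93).

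The leading genes outside the lists were Chrdl1, a BMP antagonist gene, at 0.168 in neurons with Tac1 and 0.00534 without (log2 ratio 4.97), and Aldh1a3, a retinoic acid-making enzyme gene, at 0.489 and 0.0156 (4.97). Within clusters 10 and 16, cells with Tac1 at 2 or more (41 cells) were compared with those at 0 (177 cells). Isl1 was at 2 or more in 155 of 163 cells of cluster 10 and 76 of 76 of cluster 16, but Ebf1 in 38 and 76. The groups differ in make-up, since 21 of the 41 cells with Tac1 and 43 of the 177 at 0 were from cluster 16. Aldh1a3 was at 0.764 with Tac1 and 0.113 without (2.76), the adhesion gene Cntn1 at 0.373 and 0.0496 (2.91), and Reln at 0.857 and 0.230 (1.90), beside 2.54% of 8077 genes higher and 2.90% lower. Of 10 striatal list genes compared there, 1 was 2-fold higher and 3 lower, with a median of 0.07 (0.03 over all genes). Isl1 there was at 7.62 and 8.04 (-0.08), while Six3 was at 1.51 with Tac1 and 4.70 without (-1.64) and Dlx1 at 0.708 and 4.15 (-2.55). Each cluster was then taken alone, a comparison added after the values were seen. The log2 ratio of Dlx1 was -2.37 in cluster 10 and -0.43 in cluster 16, and that of Six3 was -1.06 in cluster 10 and -1.15 in cluster 16. Aldh1a3 had 3.94 in cluster 10 and 0.90 in cluster 16, Cntn1 4.89 and 0.60, and Reln 2.21 and 1.30. Ebf1 had 1.15 in cluster 10 and -0.11 in cluster 16, and Isl1 -0.12 and -0.49.

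**Figure D5:**
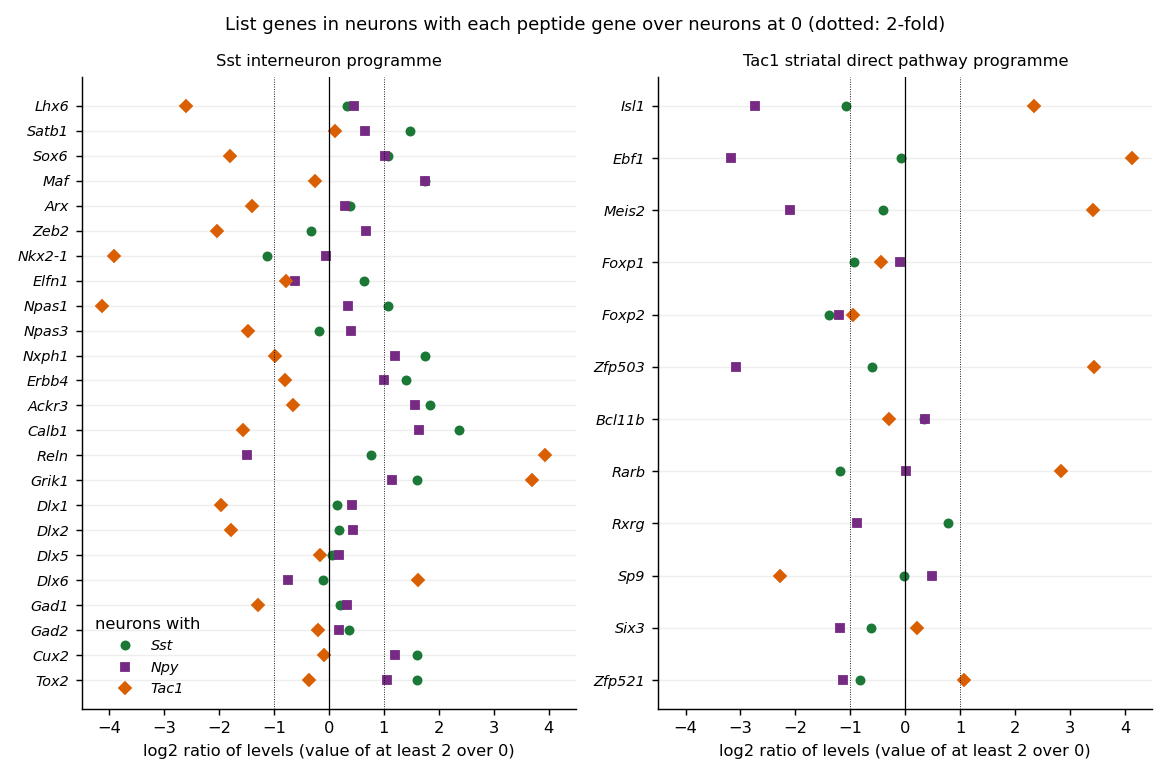
Log2 ratio of levels (x axis) in neurons with Sst (circles), Npy (squares) or Tac1 (diamonds) at 2 or more over neurons at 0, for the compared genes of the Sst interneuron list (left) and the striatal direct pathway list (right), with dotted lines at 2-fold. A gene listed at 0 in a group has no point, and not every list gene is drawn. Lhx6 is at 0.32 for Sst and -2.60 for Tac1, and Ebf1 at 4.13 for Tac1 and -3.16 for Npy.

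Genes whose level over the 16 clusters was most like each peptide gene were ranked by Pearson correlation of log2(level + 0.1) among 11854 genes. The clusters are the points and share 1 library, so the values are descriptions. Tac1 had the closest matches, Aldh1a3 (0.98), Msantd1 (0.96), Ebf1 (0.96), Zfp503 (0.96) and Sema3a (0.96). For Sst they were Tmem132b (0.88), Setd7 (0.86) and Cxcl14 (0.86), and for Npy Rai2 (0.84), Zc3h13 (0.83) and Fam222a (0.81). The peptide genes were less like each other, at 0.30 for Sst with Npy, 0.37 for Sst with Tac1 and -0.35 for Npy with Tac1. Ebf1 was among the 10 genes most like Tac1 under all 6 alternatives tried, but at most 18 of the 30 top genes were kept under any of them.

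Other peptide genes had other patterns. Of 44 on the list compared, 20 had a row in the table. Among these Pomc had a value of at least 1 in the most cells, 846, but of at least 2 in 118. Pnoc, the nociceptin precursor gene, had the most cells at 2 or more, 408 (753 at 1 or more), and its highest level in cluster 16, at 2.12. In neurons with Tac1 it was at 1.73, against 0.571 in neurons without (log2 ratio 1.60), and Gal, the galanin gene, at 0.608 and 0.0439 (3.79). In neurons with Npy at 2 or more Pnoc was at 0.238, against 0.694 in neurons at 0 (-1.55). Cort, the cortistatin gene and a relative of Sst, had 3 cells at 2 or more, and Penk, the proenkephalin gene of the other striatal projection pathway, had 1. Of 13 receptor genes for the 3 peptides, only Sstr1, Sstr2 and Npy1r had a row, and their highest cluster levels were 0.122, 0.0715 and 0.0804.

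The genes that process and store peptides were mostly within 2-fold between neurons with and without each gene. All 20 on that list had a row. Of 19 compared, 0 were 2-fold higher and 2 lower in neurons with Sst at 1 or more, beside 1.57% and 4.04% of all genes. In neurons with Npy they were 0 and 2, beside 0.696% and 2.94%. In neurons with Tac1 they were 2 and 1, beside 6.28% and 6.04%. The median log2 ratio with Tac1 was 0.54, beside 0.05 over all genes. The convertase gene Pcsk2 was at 0.294 in neurons with Tac1, against 0.0989 in those without (1.57), and the proSAAS gene Pcsk1n at 7.55 and 4.15 (0.86). Of 14 activity and cAMP response genes, 12 were compared. In neurons with Sst 2 were 2-fold higher and 1 lower, beside 1.57% and 4.04% of all genes. The higher were Npas4, with 0.0552 and 0.0112 (2.31), and Fosb, with 0.0276 and 0.0120 (1.21). Both rest on few values, with 3 and 11 cells at 2 or more in the library. Creb1, which encodes the factor that binds the cAMP response element, was at 0.690 with Sst and 0.764 without (-0.15).

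Markers of other cell types were checked in the cells with each gene at 2 or more. The summed level of the glutamatergic list was 0.218 in Sst cells, 0.136 in Npy cells and 1.93 in Tac1 cells, against 0.196 in all neuronal clusters. This list includes Reln, which was at 0.773 in neurons with Tac1 at 2 or more. Of its 9 measured markers, 4 were at 0 in Tac1 cells (Neurod1, Eomes, Neurog2 and Ebf3), 4 in Sst cells and 3 in Npy cells. That of the hypothalamic list was 0.310 in Sst cells, 0.481 in Npy cells and 0.263 in Tac1 cells, against 0.604. The LGE striatal list summed to 13.3 in Sst cells, 12.0 in Npy cells and 41.2 in Tac1 cells, against 14.4. The ventricular zone progenitor list summed to 7.58 in Sst cells, 17.6 in Npy cells and 3.77 in Tac1 cells, against 9.14 in all neuronal clusters, and 37 of the 288 Npy cells were in the other clusters. The oligodendrocyte precursor list summed to 0.00837 in Sst cells, 0.139 in Npy cells and 0 in Tac1 cells, against 0.00651. Their part in the results was not tested. Endothelial, mural, microglial, choroid plexus and meningeal lists summed to at most 0.0773 in any of these groups, but only 2 of 7, 2 of 6, 1 of 8, 1 of 5 and 3 of 6 of their markers had a row. The erythroid list, with 8 of 9 markers measured, summed to 1.93 in Sst cells, 1.89 in Npy cells and 2.24 in Tac1 cells. It was at 2.07 in the neuronal clusters and 1.83 in the others, and its part in the results was not tested. The cells with Tac1 at 2 or more had a median total of 13244.5, against 12503 over all cells. Its part in the result was not tested.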

How the data were processed

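Single-cell RNA of E11.5 mouse MGE was deposited as 1 gene by cell table. The tools named are Cell Ranger 3.0.2 and bcl2fastq, with build GRCm38, per the submitters' processing notes. The deposited unit is taken to be a score derived from UMI counts. The values are whole numbers, but cell totals span only 10475 to 14196 and in 214 of 3995 cells under 10% of the values of genes with a mean near 1 are exactly 1. What was done to them was not stated in the labels. The analysis plan had allowed for UMI counts, so count models and counting intervals on values were dropped.

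Scrublet (scanpy 1.11.5, expected rate 5%) called 6 cells (0.150%), too few to show that doublets were rare, and these were left out. All cells had at least 1000 genes. For clustering, each cell was scaled to 10000 and values were log-transformed. Without Sst, Npy and Tac1, the 2000 most variable genes, 30 components, 15 neighbours and Leiden resolution 1 (igraph 0.11.9, seed 0) gave 16 clusters. A name needed 3 list markers at 1.5 times the level of the other cells and in 10% of cells. Cells are not replicates, so no p-value was computed. Ratios used genes with at least 30 summed values, and 2-fold was the size named. In each comparison of neurons with and without a gene, the genes named outside the lists lead by ratio among those with a value in at least 10% of the cells of a group. Predicted, antisense clone and ribosomal gene names were passed over. The ratio step was tested on simulated data with known folds. Sequences come from RefSeq, with all 3 genes matched by symbol, and 4 motifs were searched on both strands. The genes and lists were chosen with earlier results of these data known. The value limits of 2 and 10 for the member comparisons and within-cluster comparisons were chosen after seeing the data. Some genes that these rules name are not reported here.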

Additional observations from a re-analysis of the deposited data

How the results depend on the processing

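Over 16 main results, 92 alternative values were computed, and 69 stayed close to the main value (shares within its interval, levels, ratios and counts within 1.5 times). All 21 alternative log2 ratios by Lhx6, Lhx8, Isl1 and Ebf1 were among these, but with the selecting genes at 2 or more that of Sst was 0.69 (0.23 in the main setting) and that of Npy 0.91 (0.46). Counting a gene only at 2 or more moved the share of all cells to 2.45% for Sst, 7.21% for Npy and 1.25% for Tac1, and the Npy share in neurons with Tac1 to 4.26%. At 10 or more, a limit chosen after seeing the data, Tac1 was in 0 of 51 Sst neurons, against 1.22% of the others, which reversed the order, and Npy in 0 of 27 Tac1 neurons. Within cluster 1 the Npy share in Sst cells was 50.5%. The Tac1 level in its highest cluster was 2.09 at resolution 0.5, and the Sst level 6.38 at resolution 2. The number of genes past 2-fold was 742 for Sst, 481 for Npy and 1628 for Tac1. It was 184, 134 and 670 with at least 100 summed values per gene, and 1780, 912 and 3102 with a value of at least 2 against 0. It was 164 for Npy within cluster 1 and 439 for Tac1 within clusters 10 and 16. Of the 30 genes most like the members, 16 were kept with the members in the clustering, 15 at resolution 0.5, 17 at resolution 2, 13 with a larger set of variable genes, 18 among genes in at least 200 cells and 6 with correlation over cells. The cause was not tested. No paired analysis was possible because the table is 1 pooled library with no replicates. Raw depth is unknown, so a gene at 0 in a cell is not shown to be absent.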
